A study of Homo sapiens with 2 samples.

Results

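The 23 genes described here encode membrane transporters, ion pumps and ion channels. They are the rows of the authors' deposited table whose names start with SLC, with ABCA, ABCB, ABCC, ABCD or ABCG, with KCN, with TRPC, TRPM or TRPV, with CLCN, or with ATP and a digit, leaving out the glucose transporter SLC2A1. They make up 23 of the 836 loci in that table. The members comprise 13 solute carrier genes, 4 ABC transporter genes, 3 potassium channel genes, 2 P-type ATPase genes and no CLCN gene, with TRPV2 as the TRP channel.

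RNA was sequenced from MiaPaCa, an established line of human pancreatic cancer cells, in 2 libraries, to find the genes whose expression differs when the transcription factor MYB is silenced. The Scr control library came from cells transfected with the plasmid pGFP-V-RS-Scr, and the MYB-silenced library from cells transfected with pGFP-V-RS-shMYB, which encodes a short hairpin RNA against MYB. Both were stable pools selected in puromycin, so neither is a single clone. The labels give the genotype of the control as MYB-overexpression, while the protocols describe only these plasmids. Each group has 1 library, so no replicate error can be given, no test was run, and sequencing depth is unknown. MYB itself was at 981 FPKM in Scr cells and 0.554 FPKM in MYB-silenced cells (FPKM, fragments scaled for transcript length and library size). In a bulk library, a different share of cells and a different amount of RNA per cell cannot be told apart. None of 20 markers of epithelial and mesenchymal identity, fibroblasts, blood, endothelium and acini was among the listed loci, so the cell type could not be checked on them.

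Solute carriers move ions, nutrients and metabolites down or against gradients without hydrolysing ATP themselves. ABC transporters and P-type ATPases use ATP to pump lipids, drugs, ions or polyamines, and ion channels open selective pores. In carcinoma cells these proteins set nutrient uptake, cytosolic pH, metal content, membrane lipid composition and the efflux of drugs.

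Most of the listed transporter genes were higher in the MYB-silenced library. Of the 23 members, 19 (82.6%) were higher and 4 were lower, while 38.3% of all 836 listed loci were higher and 61.7% were lower. The lower members were the zinc transporter genes SLC39A10 and SLC30A1, the amino acid transporter gene SLC38A4 and the efflux pump gene ABCC4. Ratios are given as log2(MYB-silenced + 0.5) minus log2(Scr + 0.5), in which the added 0.5 FPKM understates the difference of weakly expressed genes. Every locus in the table has a deposited p-value no higher than 0.04995, so each member had been selected for a difference. Without the pseudocount, the smallest difference among the members was 0.77 on the log2 scale.

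Across both libraries, the mean reached 1 FPKM for 22 of the 23 members, and 9 of these 22 were at least 2-fold higher, against 19.9% of the 797 listed loci at that level. A further 2 of the 22 were at least 2-fold lower, against 24.7% of those loci. The median log2 ratio of the 22 members was 0.96, and that of the 797 loci was -0.80. The 19 higher members had a median log2 ratio of 1.005, close to the 1.009 of the 320 listed loci that were higher. Of the 9 members at least 2-fold higher, 5 were below 1 FPKM in the control and reached that mean only through the silenced library. Without loci below 1 FPKM in either library, 4 of 17 members were at least 2-fold higher, against 17.9% of 710 listed loci, so at that level the share of members past 2-fold was near that of the table.

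**Figure D1:**
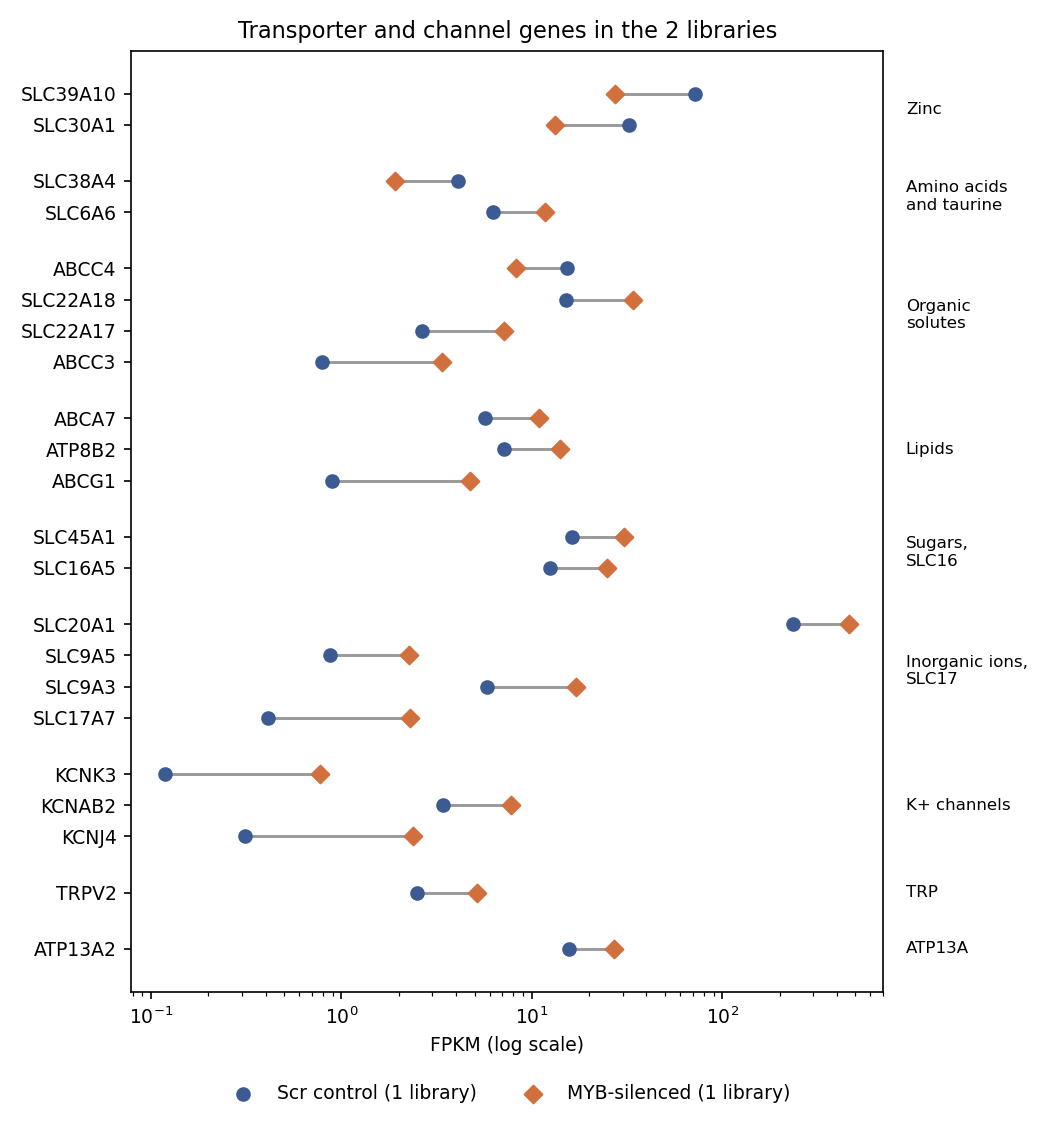
FPKM of 22 of the 23 genes in the Scr control library (circles) and the MYB-silenced library (diamonds), on a log axis, grouped by substrate class; each symbol is 1 library and there are no error bars. The diamonds lie left of the circles for SLC39A10, SLC30A1, SLC38A4 and ABCC4, and right of them for the other genes drawn.

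Both listed zinc transporter genes were lower. SLC39A10 (chromosome 2, 196477723 to 196602426, hg19) encodes ZIP10, which brings zinc into the cytosol. It was at 72.1 FPKM with the scrambled hairpin and 27.4 FPKM with the MYB hairpin, a log2 ratio of -1.38. SLC30A1 (chromosome 1, 211744968 to 211752519) encodes ZnT1, which exports zinc across the plasma membrane. It was at 32.3 and 13.2 FPKM, a log2 ratio of -1.26. The importer and the exporter were therefore lower side by side, at 38.02% and 40.9% of their control levels. The FPKM of SLC39A10 was 2.23 times that of SLC30A1 in the control and 2.07 times that after silencing. In the authors' deposited table the unadjusted p-values, which compare 2 libraries and not 2 conditions, were 0.0003 for SLC39A10 and 0.00085 for SLC30A1. Among all listed loci these genes had the 75th and the 96th lowest ratios. They also had the lowest transcript GC contents of the members, 39.1% and 37.98%. Among other listed loci in the lowest of 5 GC content bins, 12 of 154 were higher, and the part of GC content in the result was not tested.

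The other lower members were an amino acid carrier and an ABC pump. SLC38A4 (chromosome 12, 47158544 to 47219780) encodes a sodium-coupled carrier of neutral amino acids, and was at 4.09 FPKM in Scr cells and 1.92 FPKM in MYB-silenced cells (log2 ratio -0.93). ABCC4 (chromosome 13, 95672083 to 95953687) encodes MRP4, which exports cyclic nucleotides, prostaglandins and nucleotide analogue drugs. It was at 15.2 and 8.23 FPKM (log2 ratio -0.85). After the median ratio of all listed loci was subtracted, ABCC4 was at -0.05 and SLC38A4 at -0.13, whereas SLC39A10 and SLC30A1 were at -0.58 and -0.46.

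The 4 lower members are the small group that runs against the rest, so the 250 bases before their annotated starts are shown (RefSeq, GRCh38.p14, each read 5′ to 3′ on the strand of the gene). Only the first RefSeq record of each gene was used. Its start was not compared with other annotated starts or with the start of the deposited locus, and may differ from them. Capitals mark the letters AACNG, the core of the MYB recognition sequence, or their reverse complement.
SLC39A10, chr2:195656708-195656957, plus strand: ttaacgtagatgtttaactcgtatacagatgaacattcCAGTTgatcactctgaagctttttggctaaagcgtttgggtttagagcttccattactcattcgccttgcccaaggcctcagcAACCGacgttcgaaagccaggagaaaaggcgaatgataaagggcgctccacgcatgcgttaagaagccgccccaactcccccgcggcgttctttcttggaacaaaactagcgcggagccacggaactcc
SLC30A1, chr1:211579162-211579411, minus strand: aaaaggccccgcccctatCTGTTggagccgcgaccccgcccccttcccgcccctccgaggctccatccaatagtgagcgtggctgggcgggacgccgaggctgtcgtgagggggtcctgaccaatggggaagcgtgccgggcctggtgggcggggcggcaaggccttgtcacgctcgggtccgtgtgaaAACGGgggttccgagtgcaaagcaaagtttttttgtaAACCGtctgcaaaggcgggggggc
SLC38A4, chr12:46825998-46826247, minus strand: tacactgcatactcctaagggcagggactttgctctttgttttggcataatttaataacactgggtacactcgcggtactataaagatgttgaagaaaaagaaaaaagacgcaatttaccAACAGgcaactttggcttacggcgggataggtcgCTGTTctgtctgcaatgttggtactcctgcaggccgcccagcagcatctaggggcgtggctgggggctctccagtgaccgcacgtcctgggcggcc
ABCC4, chr13:95301452-95301701, minus strand: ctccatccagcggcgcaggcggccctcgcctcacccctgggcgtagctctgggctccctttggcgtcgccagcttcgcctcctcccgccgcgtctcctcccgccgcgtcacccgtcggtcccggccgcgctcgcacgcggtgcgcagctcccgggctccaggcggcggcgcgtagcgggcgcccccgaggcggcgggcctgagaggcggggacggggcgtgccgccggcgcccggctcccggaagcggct
SLC30A1 held 3 such matches, the nearest beginning 24 bases before the start, SLC39A10 and SLC38A4 held 2 each, and ABCC4 held none.

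Promoter windows were found for 16 of the 23 members. AACNG was present on either strand in 7 of these 16 windows (43.8%), against 70.6% of all 27305 windows of the same length. It was present in 3 of the 4 lower members and 4 of the 12 higher members with a window. Promoter GC content differed beside this, with a median of 59% for the lower members, 70.2% for the higher members and 58% for all windows. Of all windows with at least 70% GC, 50.5% held the letters, as did 2 of the 8 members in that range. The share was 69% of windows from 60% to under 70% GC, with 1 of 3 members, and 78.6% of those under 60% GC, with 4 of 5 members. A match is a string of letters and not a measured binding site. The other motifs searched were in 0 to 5 of the 16 windows. TTGCATCA, a composite element of ATF4 and C/EBP factors, was in 0 of 16 windows and in 0.82% of all. The E-box CACGTG was in 2 of 16 (6.49% of all), in SLC20A1 and SLC9A5. TGACNNNGC, the antioxidant response element, was in 3 of 16 (11% of all), in ABCC4, SLC20A1 and SLC30A1. The metal response letters TGCGCNC or TGCACNC, added to the search after the values were seen, were in 5 of 16 (24.7% of all), including SLC30A1, where the match begins 49 bases before the start, and not SLC39A10.

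Carriers of inorganic ions held the most strongly expressed member. SLC20A1 (chromosome 2, 113403434 to 113421400) encodes PiT1, a sodium-dependent phosphate importer that some retroviruses use as a receptor. It was at 237 FPKM with the scrambled hairpin and 464 FPKM with the MYB hairpin (log2 ratio 0.97), and ranked 14th and 6th by FPKM among the 836 listed loci. In FPKM this gain of 227 exceeded that of every other member, the next being 18.9 for SLC22A18. Both listed sodium-proton exchanger genes were higher. SLC9A3 (chromosome 5, 473334 to 524549) encodes NHE3, the exchanger of the apical membrane of gut and kidney epithelium, and was at 5.84 and 17.0 FPKM (log2 ratio 1.47). SLC9A5 (chromosome 16, 67282855 to 67306094) encodes NHE5, known mainly from brain, and was at 0.876 and 2.26 FPKM (log2 ratio 1.005). SLC17A7 (chromosome 19, 49932655 to 49944808) falls in a phosphate carrier family by name but encodes VGLUT1, which loads synaptic vesicles with glutamate. It was at 0.410 and 2.29 FPKM (log2 ratio 1.62). The authors' deposited table gives p-values of 0.00125 for SLC9A3, 0.0283 for SLC20A1, 0.00705 for SLC17A7 and 0.02255 for SLC9A5.

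The promoter windows of SLC20A1 and SLC9A3, a strongly and a moderately expressed gene that were both higher, are shown for comparison. Their GC contents were 80% and 82%, within a range of 52.4% (KCNJ4) to 82% for the higher members and of 50.4% (SLC39A10) to 80.4% (ABCC4) for the lower members, so the groups overlapped. Neither holds AACNG, so no letter is in capitals, but 4 of the 12 higher members with a window do. ATP8B2 holds 3 matches, the nearest beginning 18 bases before the start, SLC17A7 and SLC45A1 hold 2 each, and KCNJ4 holds 1.
SLC20A1, chr2:112645689-112645938, plus strand: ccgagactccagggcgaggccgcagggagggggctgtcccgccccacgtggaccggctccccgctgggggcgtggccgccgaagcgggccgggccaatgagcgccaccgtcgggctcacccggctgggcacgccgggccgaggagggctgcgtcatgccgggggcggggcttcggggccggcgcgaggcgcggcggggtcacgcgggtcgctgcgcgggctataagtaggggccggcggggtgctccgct
SLC9A3, chr5:524450-524699, minus strand: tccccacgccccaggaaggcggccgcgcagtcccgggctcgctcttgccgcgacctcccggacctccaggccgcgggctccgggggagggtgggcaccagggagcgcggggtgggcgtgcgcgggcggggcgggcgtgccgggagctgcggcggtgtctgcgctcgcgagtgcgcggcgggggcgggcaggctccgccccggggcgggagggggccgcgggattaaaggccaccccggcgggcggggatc

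All 3 listed potassium channel genes were higher, and 2 of them were below 1 FPKM in the control. KCNJ4 (chromosome 22, 38822333 to 38851205), an inwardly rectifying channel, was at 0.311 FPKM in Scr cells and 2.38 FPKM in MYB-silenced cells (log2 ratio 1.83). KCNK3 (chromosome 2, 26915581 to 26954066), an acid-sensitive leak channel that helps to set the resting potential, was at 0.119 and 0.772 FPKM (log2 ratio 1.04). KCNK3 is the member below the mean of 1 FPKM, and its log2 ratio was 1.99 when 0.1 FPKM was added and 0.66 when 1 FPKM was added. KCNAB2 (chromosome 1, 5922870 to 6161253), a cytosolic beta subunit of voltage-gated channels, was at 3.43 and 7.74 FPKM (log2 ratio 1.07). TRPV2 (chromosome 17, 16318856 to 16340317), a calcium-permeable cation channel, was at 2.48 and 5.13 FPKM (log2 ratio 0.92). As FPKM ratios without a pseudocount, KCNJ4 was 7.63-fold and KCNK3 6.49-fold higher, the largest such ratios among the members, and both rest on control values under 0.4 FPKM.

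The lipid transporter genes were all higher. ABCG1 (chromosome 21, 43619799 to 43718121), which exports cholesterol to lipoproteins, was at 0.892 FPKM with the scrambled hairpin and 4.71 FPKM with the MYB hairpin. Its log2 ratio of 1.90 was the highest of the members and the 22nd highest of all listed loci, and the authors' deposited table gives it the lowest p-value of the members, 0.0001. ATP8B2 (chromosome 1, 154298036 to 154323780), a flippase that moves phospholipids to the cytosolic leaflet, was at 7.13 and 14.0 FPKM (log2 ratio 0.93). ABCA7 (chromosome 19, 1040102 to 1065570), a phospholipid exporter linked to phagocytosis, was at 5.67 and 10.9 FPKM (log2 ratio 0.89). Of this group, ABCG1 alone was past 2-fold, and it was also the one below 1 FPKM in the control.

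Carriers and pumps of organic solutes were split in the ABCC family. ABCC3 (chromosome 17, 48712218 to 48769063) encodes MRP3, which exports bile salts and glucuronide conjugates, and was at 0.789 FPKM in Scr cells and 3.37 FPKM in MYB-silenced cells (log2 ratio 1.58). Its relative ABCC4 was lower, as given above, so that the FPKM of ABCC4 exceeded that of ABCC3 in both libraries but by a smaller margin after silencing. SLC22A17 (chromosome 14, 23815432 to 23822100), known as a receptor for the iron-siderophore carrier lipocalin-2, was at 2.66 and 7.18 FPKM (log2 ratio 1.28). SLC22A18 (chromosome 11, 2909327 to 2946476), an imprinted gene with similarity to organic cation carriers, was at 15.0 and 34.0 FPKM (log2 ratio 1.15). SLC22A18 is overlapped by the antisense gene SLC22A18AS, whose reads cannot be told apart without strand information.

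Genes filed under sugar and monocarboxylate carriers were higher. SLC16A5 (chromosome 17, 73084044 to 73103598), a member of the monocarboxylate carrier family, was at 12.4 FPKM with the scrambled hairpin and 24.7 FPKM with the MYB hairpin (log2 ratio 0.96). SLC45A1 (chromosome 1, 8378181 to 8404227), a proton-coupled sugar carrier, was at 16.3 and 30.5 FPKM (log2 ratio 0.89). Both SLC16A5 and SLC45A1 were thus just under 2-fold on the log2 scale with the pseudocount. SLC2A1, which the rule leaves out, ran the other way at 33.0 and 16.0 FPKM.

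SLC6A6 and ATP13A2 were both higher. SLC6A6 (chromosome 3, 14444106 to 14583588), the taurine transporter gene, was at 6.28 FPKM in Scr cells and 11.8 FPKM in MYB-silenced cells (log2 ratio 0.86), opposite in direction to the amino acid carrier SLC38A4. ATP13A2 (chromosome 1, 17312453 to 17338452), a lysosomal ATPase that exports polyamines, was at 15.7 and 26.9 FPKM. Its log2 ratio of 0.75 was the smallest of the members in absolute size. Among the 23 genes, p-values in the authors' deposited table reached up to 0.04265, and 9 (39.1%) were at or under 0.01, against 30.3% of all listed loci.

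**Figure D2:**
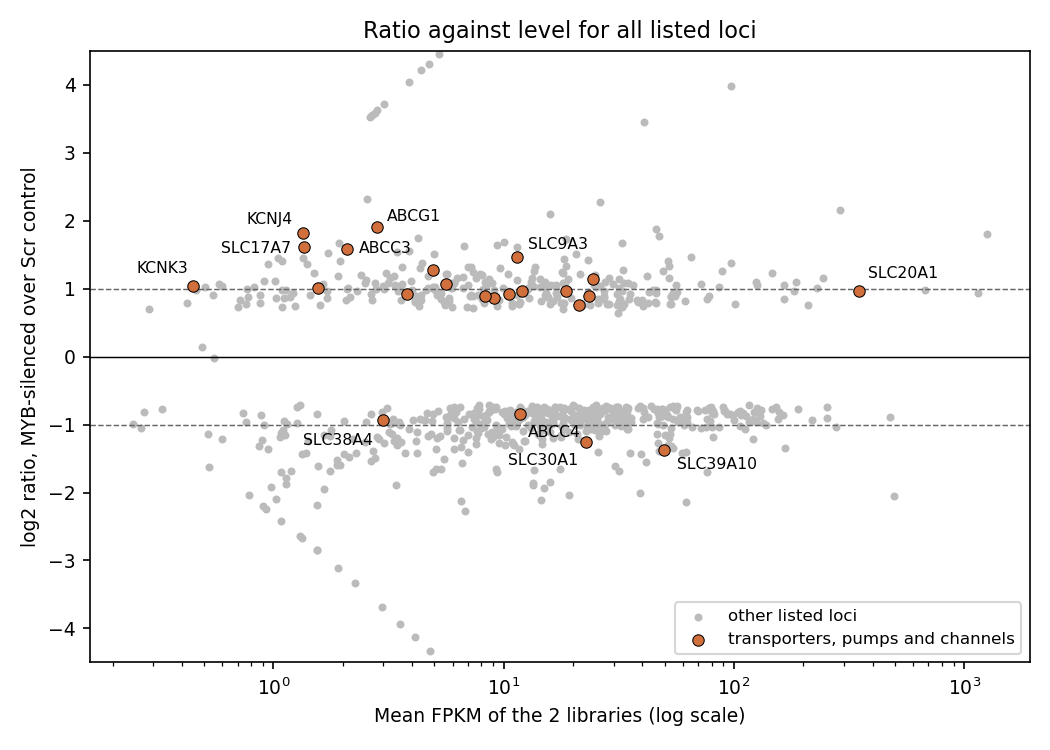
Log2 ratio of MYB-silenced over Scr control (with 0.5 FPKM added) against the mean FPKM of both libraries on a log axis, for the transporter, pump and channel genes (orange) and the other listed loci (grey); dashed lines mark 2-fold and 10 loci beyond 4.5 lie outside the plot. The members with the highest ratios, ABCG1, KCNJ4, SLC17A7 and ABCC3, lie at means under 3 FPKM, and SLC20A1 lies far to the right of the other members.

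The members were spread widely in level. Control values ran from 0.119 FPKM for KCNK3 to 237 FPKM for SLC20A1, with a median of 5.84 FPKM against 13.9 FPKM for all listed loci. After silencing they ran from 0.772 to 464 FPKM, with a median of 10.9 FPKM against 11.2 FPKM. In the control 6 of the 23 members (26.1%) were below 1 FPKM, against 8.13% of all listed loci, and after silencing 1 member was. All 6 were higher after silencing, as were 47 of the 53 listed loci (88.7%) that lay above 0 and below 1 FPKM in the control. No member was listed at 0 in either library.

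Direction moved with transcript GC content among the members as in the whole table. The 4 lower members had a median GC content of 40.4% and the 19 higher members one of 59.7%. For all listed loci with a value (783 of 836) the medians were 44.6% for lower and 60.4% for higher loci. The GC contents of the lower and higher members did not overlap: ABCC4 had the highest value of the lower members, 44.6%, and SLC20A1 the lowest of the higher members, 46.5%. In the highest of 5 GC bins, 9 of 9 members and 130 of 148 other loci (87.8%) were higher. In the next bin 7 of 7 members and 71 of 149 other loci (47.7%) were higher, and in the middle bin 3 of 3 members and 45 of 154 other loci (29.2%). ATP8B2 and SLC20A1 were in the middle bin. In the bins below it 0 of 4 members were higher, against 12 of 154 and 20 of 155 other loci. The part of GC content in the direction of the members was not tested.

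**Figure D3:**
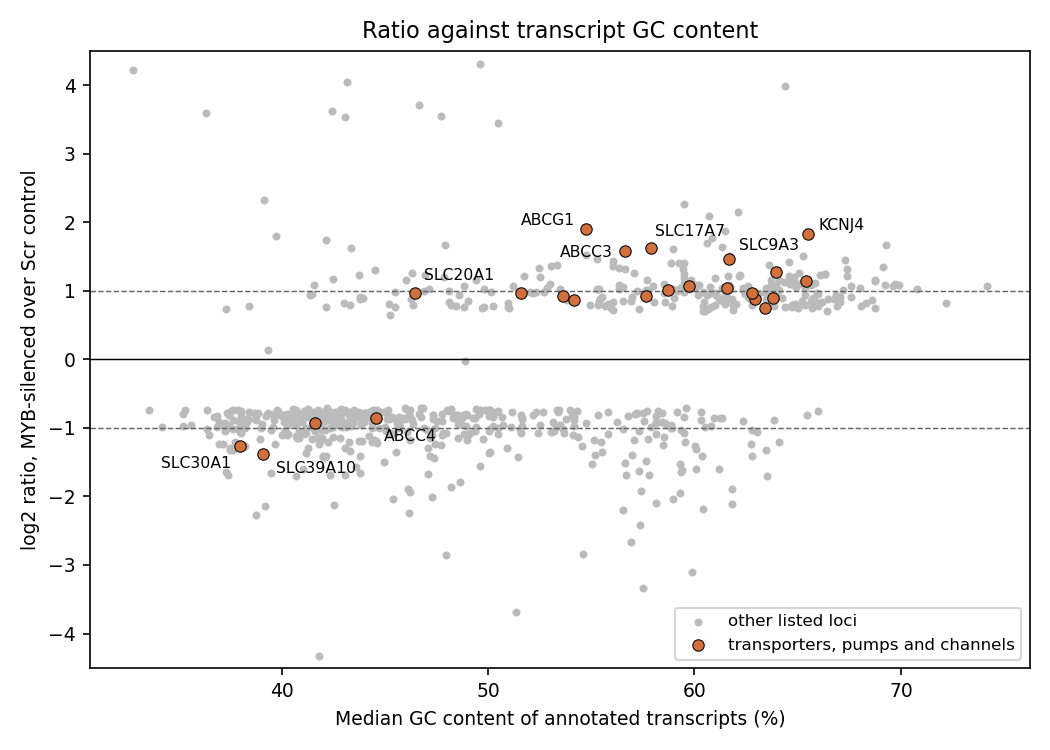
Log2 ratio of MYB-silenced over Scr control against the median GC content of a gene's annotated transcripts, for the transporter, pump and channel genes (orange) and the other listed loci with a GC value (grey); dashed lines mark 2-fold and 10 loci beyond 4.5 lie outside the plot. The 4 lower members lie at 44.6% GC or less and the 19 higher members at 46.5% or more.

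**Figure D4:**
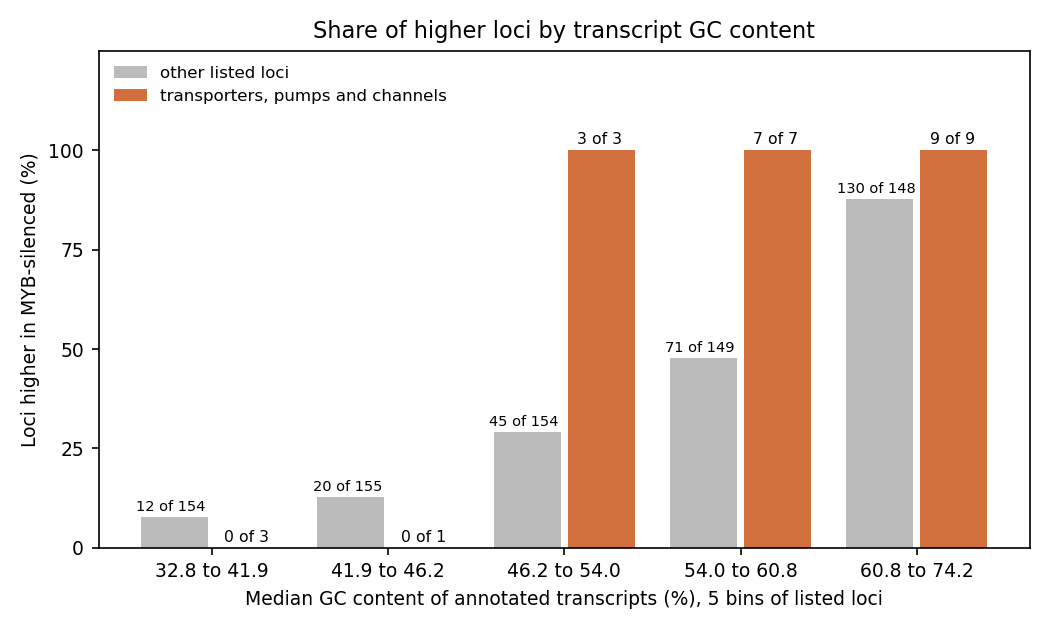
Share of loci higher in the MYB-silenced library in each of 5 bins of transcript GC content, for the other listed loci (grey) and the transporter, pump and channel genes (orange), with counts above the bars. The grey bars climb from 12 of 154 to 130 of 148, while the orange bars go from 0 of 3 and 0 of 1 to 3 of 3, 7 of 7 and 9 of 9.

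The members lay on 14 chromosomes, with 5 on chromosome 1 and 3 each on chromosomes 2 and 17. For 12 members the annotation holds a gene on the opposite strand within the gene span, among them NPHP4 for KCNAB2, GRIP2 for SLC6A6, EXOC3 for SLC9A3 and FHOD1 for SLC9A5. None of these opposite-strand genes was itself a listed locus, and the authors' strand setting is not stated in the sources used here. The share of all listed loci with an opposite-strand gene was not computed, so the count of members has no comparison.

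Against a current gene catalogue, the members were a small part of their families. The RefSeq table holds 653 protein-coding genes that meet the naming rule, of which the 23 members are 3.52%, while 3.98% of all 20052 protein-coding genes were listed. For the ABC subfamilies 4 of 41 genes were listed (9.76%) and for KCN genes 3 of 96 (3.12%). Genes that did not enter the table were not analysed here, so nothing is known of their direction.

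A list of 42 name patterns for other channel, carrier and pore genes outside the rule matched 13 listed loci. Of these, 9 were higher and 4 lower. Among the 12 whose mean reached 1 FPKM, 7 were at least 2-fold higher and 0 at least 2-fold lower, against 19.9% and 24.7% of all listed loci at that level. PKD1L2 reached that mean only through the silenced library, and 6 of the 11 loci at 1 FPKM or more in both libraries were at least 2-fold higher, against 17.9% of listed loci so filtered. PKD1L2, a polycystin family gene, had a log2 ratio of 1.37, from 0.562 to 2.24 FPKM. The solute carrier-like gene MFSD3 was at 7.61 and 19.7 FPKM (1.32). The pannexin gene PANX2 was at 10.4 and 25.4 FPKM (1.25). The transmembrane channel-like gene TMC6 was at 3.18 and 8.07 FPKM (1.22), the pacemaker channel gene HCN2 at 16.5 and 34.0 FPKM (1.02), and the calcium channel beta subunit gene CACNB3 at 4.26 and 9.04 FPKM (1.003). The store-operated calcium channel gene ORAI3 was at 22.1 and 43.5 FPKM (0.96). The lower loci were the joint locus of GJA9 and MYCBP, the connexin gene GJC1, KCTD9 and MCU. MCU, the mitochondrial calcium uniporter gene, was at 29.8 and 17.0 FPKM (-0.79, but 0.01 after centring). KCTD9 matched through the potassium channel tetramerisation domain in its name, and the joint locus does not separate GJA9 from MYCBP. Neither is therefore shown here to be a channel gene. The 9 higher loci of this list had transcript GC contents of 56.1% or more, and the 4 lower ones of 47.5% or less. Higher loci had the higher GC contents in the whole table too, with medians of 60.4% for higher and 44.6% for lower loci.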

How the data were processed

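The deposited table holds FPKM values of 1 Scr control and 1 MYB-silenced library of MiaPaCa cells, made by the authors. Per the submitters' processing notes the tools were Cufflinks, Bowtie, TopHat and CASAVA 1.8.2 and the build was hg19, with no role or parameter given. Annotation, strand setting and scaling between libraries were not given in the sources used here. The authors also deposited for each locus a log2 ratio with no pseudocount, an unadjusted p-value and a signed fold score, and every listed p-value is at most 0.04995. No counts or library totals are given, so depth is unknown and no interval was computed.

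Log2 ratios were computed here from FPKM with a pseudocount of 0.5. A mean of at least 1 FPKM was required for counts of 2-fold differences. With 1 library a group no test was run. Substrate classes were assigned by gene name prefix. All members were eligible to be named, with full values for up to 4 a class by size of ratio and for every member past 2-fold, and the remainder are given as well, except that values of some loci are not reported here. The members and lists were chosen with earlier results of these data known. Printed starts are those of the table raised by 1. GC content is the median over GENCODE release 29 transcripts, found for 93.7% of the listed loci and for all 23 members. Promoter windows are the 250 bases before the start of the first RefSeq record of each gene, so alternative starts were not searched. Each promoter record also holds 50 bases after the start, which were left out of the window. Of 8507 minus-strand genes, the last 25 of these 50 bases matched a transcript as given for 7027 and as reverse complement for 2. Windows were therefore read as given on the gene's strand. Python 3.11.15, numpy 2.4.6, pandas 2.3.3 and matplotlib 3.10.9 were used.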

Additional observations from a re-analysis of the deposited data

How the results depend on the processing

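Pseudocounts of 0.1 and 1 cannot change the direction of a ratio, so these settings bear only on its size. Of the 22 members, 10 were at least 2-fold higher and 3 at least 2-fold lower with 0.1 FPKM added. With 1 FPKM added the counts were 7 and 2. After centring on the median of all listed loci, which raises every ratio, all 23 members kept their direction. The 9 of 22 members at least 2-fold higher became 3 of 14 at a mean of at least 5 FPKM (16.9% of all listed loci so filtered) and 4 of 17 without members below 1 FPKM in either library (17.9%), a set chosen after seeing the data. Centring gave 18 higher and 0 lower members and a median of 1.76, by construction, since the listed median (-0.80) is that of selected genes. Of the 22 members, a 1.5-fold threshold gave 18 higher and 4 lower, and a 3-fold threshold 3 higher and 0 lower. The 3 members past 3-fold, ABCG1, KCNJ4 and SLC17A7, were all below 1 FPKM in the control. The shares of all listed loci with the other pseudocounts, after centring, at 1.5-fold and at 3-fold were not computed, so these counts have no comparison. With deposited p-values up to 0.01 the median was 1.47 over 9 members. The median of the 2 amino acid carriers, -0.03, became 0.01 (0.0054) with a pseudocount of 1, 0.86 at a mean of at least 5 FPKM, where SLC6A6 alone is left, and 0.76 after centring. No joint locus added a member. No paired analysis was possible because each group has 1 library, so none could be left out either. With no depth given, the precision of members under 1 FPKM cannot be stated.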

Other observations

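Beside the zinc transporter genes, both listed metallothionein loci were lower in the MYB-silenced library, as were 61.7% of all listed loci. The RefSeq table holds 11 protein-coding metallothionein symbols from MT1 to MT4, so most of that family was not listed. Metallothioneins are small cytosolic proteins that bind zinc and copper. MT1M was at 46.2 FPKM with the scrambled hairpin and 14.9 FPKM with the MYB hairpin (log2 ratio -1.60), and MT1A was at 81.5 and 40.4 FPKM (-1.003). After the median ratio of all listed loci was subtracted, MT1M was at -0.81 and MT1A at -0.21. Transcript GC content was 61.2% for MT1M and 50.5% for MT1A, above that of both zinc transporter genes. Metallothionein genes are near-identical copies that can share reads, so their separate values are uncertain. These loci were looked up after the values of SLC30A1 and SLC39A10 had been seen.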
